A study of Mus musculus with 1073 samples.

Results

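The genes described here are 6 transcription factors of the extraembryonic mesoderm, Foxf1, Hand1, Tbx3, Tbx20, Msx1 and Msx2, out of 15967 genes in the filtered tables. They were chosen as a named list, all 6 were present in the tables, and they were followed through all 13 sorted populations of the mouse yolk sac and its precursor mesoderm. Single cells were captured on a microfluidic chip, their full-length cDNA was sequenced, and reads were counted for each gene. After the authors' quality filter 926 of 1073 captured cells remained, with 483830 to 5943204 counts assigned to genes per cell. The list was proposed as genes kept in endothelium and lost in blood, so the levels below describe the members and do not support that choice. Foxf1 was detected in most endothelial cells, whereas the other members were detected in a minority of endothelial cells or in none, which goes against the description for them.

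Cells that fluoresced for GFP under the control of Flk1 (Kdr), the receptor that marks mesoderm with vascular and blood potential, were sorted from Flk1-GFP/+ embryos at E7.25 (73 and 74 cells in 2 sequencing lanes) and E7.75 (53 and 87 cells in 2 lanes). All later populations came from C57BL/6 yolk sacs, and the Flk1-GFP line was kept on the same background, so the groups differed in carrying the reporter allele. Haematopoietic progenitor cells, called HPC here and EMP in the sample labels, were TER119- CDH5+ CD41+ at E8.25 (73 cells) and E8.5 (89 cells), and TER119- CDH5- CD45+ CD41low at E9.5 (46 cells) and E10.5 (87 cells). Primitive erythroid cells (EryP) were CD41- CDH5- TER119+ at E8.5 (66 cells), and at E10.5 (3 cells) CD45- as well. Megakaryocytes (Mk) were TER119- CDH5- CD41+ at E8.5 (37 cells) and TER119- CDH5- CD45- CD41high at E10.5 (73 cells), and E10.5 macrophages (Mac, 25 cells) were TER119- CDH5- CD41- CD45+. Endothelial cells (Endo) were TER119- CD41- CDH5+ at E8.5 (79 cells) and also CD45- at E10.5 (61 cells). The 9 HPC, EryP, Mk and Mac populations, 499 cells in all, are called blood populations below.

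The extraembryonic mesoderm leaves the posterior primitive streak during gastrulation and forms the mesenchymal, vascular and blood lineages of the yolk sac, as well as the allantois and the mesoderm of the amnion and chorion. Foxf1 encodes a forkhead factor needed for the vasculature of the yolk sac and allantois, and Hand1 a basic helix-loop-helix factor needed in extraembryonic mesoderm, trophoblast and heart. Tbx3 and Tbx20 encode T-box factors, the former mainly a repressor and the latter best known in the heart, while Msx1 and Msx2 encode closely related homeodomain repressors that are classical targets of BMP signalling.

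No embryo or pool was named for any cell, so each sorted population was 1 sample, and no test between populations was made. Intervals given with shares are exact Clopper-Pearson 95% intervals and cover counting error only. One flow cell carried the populations of E7.25, E8.25 and E8.5 and a second one those of E7.75, E9.5 and E10.5, so a difference between stages on separate flow cells cannot be told apart from a difference between runs. Tissue was dissociated with trypsin up to E7.75 and with collagenase and dispase later, which likewise cannot be told apart from stage. All 96 index pairs were used again in other lanes, and no index pair occurred more than once within a lane. All 7 endothelial markers examined (Ramp2, Plvap, Aplnr, Kdr, Tek, Cdh5 and Pecam1) were detected in each of the 79 E8.5 endothelial cells, and 5 to 7 of them in each E10.5 endothelial cell. Of 8 mesenchymal markers (Pdgfra, Col1a1, Col1a2, Acta2, Tagln, Hsd11b2, Dlk1 and Wfdc2), a median of 4 was detected per E7.25 cell and 7 per E7.75 cell.

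The members lie apart in the genome. In GENCODE gene models of the GRCm38 build, Foxf1 occupied chr8:121084386-121088144 on the plus strand with 2 exons, Hand1 chr11:57828705-57832818 on the minus strand with 2 exons, and Tbx3 chr5:119670669-119684724 on the plus strand with 7 exons. Tbx20 occupied chr9:24718138-24774303 on the minus strand with 8 exons, Msx1 chr5:37820485-37824583 on the minus strand with 2 exons, and Msx2 chr13:53466884-53473074 on the minus strand with 2 exons. An exon of Tbx3 overlaps one of the antisense transcript Tbx3os1, and an exon of Foxf1 overlaps the small gene Gm27530 on the other strand. The strand setting of the counting is not given in the sources used here, so reads from these overlaps cannot be told apart.

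Transcripts of the members and their closest relatives were compared because likeness bears on whether reads could be assigned to 1 gene. The longest run of identical bases shared by Msx1 and Msx2 transcripts was 22 bases. The corresponding runs were 17 bases for Tbx3 with Tbx20, 14 for Tbx3 with Tbx2, 17 for Hand1 with Hand2 and 41 for Foxf1 with Foxf2.

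The 250 bases upstream of Msx1 and Tbx20 are shown because these were the members, apart from Foxf1, found in over 20% of the cells of a blood population. They were taken from RefSeq (GRCm38.p6), whose promoter table held 3 of the 6 members. The Msx1 window is chr5:37824586-37824835 and the Tbx20 window chr9:24774304-24774553, both on the minus strand and written 5′ to 3′, with capitals marking matches to CCAAT on either strand.
Msx1: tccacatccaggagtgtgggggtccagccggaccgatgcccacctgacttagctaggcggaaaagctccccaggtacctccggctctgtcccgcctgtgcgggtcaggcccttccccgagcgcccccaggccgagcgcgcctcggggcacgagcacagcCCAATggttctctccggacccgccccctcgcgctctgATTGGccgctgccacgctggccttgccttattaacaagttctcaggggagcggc
Tbx20: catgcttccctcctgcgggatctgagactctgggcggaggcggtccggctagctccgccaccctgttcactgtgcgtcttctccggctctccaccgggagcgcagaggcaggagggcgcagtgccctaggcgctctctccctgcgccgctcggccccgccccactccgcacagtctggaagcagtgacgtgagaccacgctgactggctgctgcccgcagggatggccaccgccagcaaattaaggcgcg
The Msx1 window held 2 CCAAT matches, and the Tbx20 window held none. Neither held AGATAA, a sequence bound by GATA factors, nor GGCGCC, a sequence bound by SMAD proteins, on either strand. Of 32851 promoter windows of this length, 33.8% held CCAAT, 9.99% AGATAA and 9.59% GGCGCC.

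All 6 factors were detected in most Flk1-GFP+ cells. At E7.25 the share of cells with at least 1 count was 98.6% for Foxf1 (95.2 to 99.8%), 96.6% for Hand1 (92.2 to 98.9%), 99.3% for Tbx3 (96.3 to 100%), 90.5% for Tbx20 (84.5 to 94.7%), 93.2% for Msx1 (87.8 to 96.7%) and 89.1% for Msx2 (82.9 to 93.6%). At E7.75 the shares were 89.3% for Foxf1 (82.9 to 93.9%), 92.1% for Hand1 (86.4 to 96.0%), 89.3% for Tbx3 (82.9 to 93.9%), 82.1% for Tbx20 (74.8 to 88.1%), 73.6% for Msx1 (65.5 to 80.7%) and 70.7% for Msx2 (62.4 to 78.1%). The share was lower at E7.75 for all 6, and the intervals of the 2 stages overlapped for Hand1 and Tbx20 but not for the others. These intervals treat cells as independent and are no test between the stages, which also lay on separate flow cells. In E7.75 lane 8 alone, the intervals of Foxf1 (84.1 to 96.7%), Tbx3 (85.6 to 97.4%) and Msx1 (71.9 to 89.1%) overlapped those of E7.25.

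Within a stage, levels were compared between genes as mean CPM, counts scaled to 1e6 by the authors' size factors, per kilobase of exon. On this scale Hand1 was highest at E7.25 with 79.3, followed by Foxf1 with 25.6, Tbx3 with 18.0, Msx1 with 17.3, Msx2 with 14.1 and Tbx20 with 6.76. At E7.75 the order was Hand1 with 86.4, Foxf1 with 42.9, Msx1 with 15.5, Tbx3 with 11.9, Msx2 with 9.24 and Tbx20 with 6.76. Hand1 therefore had the highest level per length at both stages, and Tbx20, the longest of these transcripts in exon sequence, the lowest. The length was that of all annotated exons of a gene together, 3097 bases for Msx1 and 6624 for Tbx3. The single transcripts compared above had 1935 and 4856 bases, so the order of Foxf1, Tbx3 and Msx1 at E7.25 depends on the length used.

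Between E7.25 and E7.75 no member differed by 2-fold or more on the scale of log2(mean CPM + 1), the rule for a called difference, which also required a mean of at least 5 CPM in 1 of the populations compared. Of 10616 genes tested by this rule, 6.05% were lower and 6.09% higher at E7.75, against 0 of 6 members in either direction. Foxf1 had mean CPM of 60.6 and 62.9 in the E7.25 lanes and 108.8 and 100.5 in the E7.75 lanes, so the lanes of the stages did not overlap. Its mean over all cells was 61.8 CPM (median 45.7) at E7.25 and 103.6 CPM (median 71.1) at E7.75, a log2 ratio of 0.74. Tbx3 had mean CPM of 142.4 and 96.2 in the E7.25 lanes and 67.0 and 85.5 in the E7.75 lanes. The median Tbx3 level differed more than the mean, with 102.6 CPM at E7.25 and 29.7 CPM at E7.75, and the log2 ratio of the means was -0.60. Msx2 also had lower means in both E7.75 lanes, 20.9 and 36.0 CPM, than in the E7.25 lanes, and its log2 ratio was -0.60. The lanes of Hand1, Tbx20 and Msx1 overlapped between stages. Hand1 had 135.1 and 181 CPM at E7.25 and 203 and 153.8 CPM at E7.75, and Msx1 varied most between the E7.75 lanes, with 26.8 and 60.9 CPM and detection in 60.4% and 81.6% of cells.

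Other mesodermal regulators differed by 2-fold or more over the same interval, in both directions. Of 16 other mesoderm transcription factors in the tables, 13 passed the minimum level. Gata4, Mesp1 and Mixl1 were at least 2-fold lower and Twist1, Snai2, Cdx4 and Tcf21 at least 2-fold higher at E7.75. The median log2 ratio of the list was 0.59, beside 0.05 for all genes tested. Among 6 relatives of the members, 4 passed the minimum, with T and Eomes, T-box genes of the primitive streak, lower, and Foxf2 and Tbx4 higher at E7.75. The members themselves had a median log2 ratio of -0.08.

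**Figure D1:**
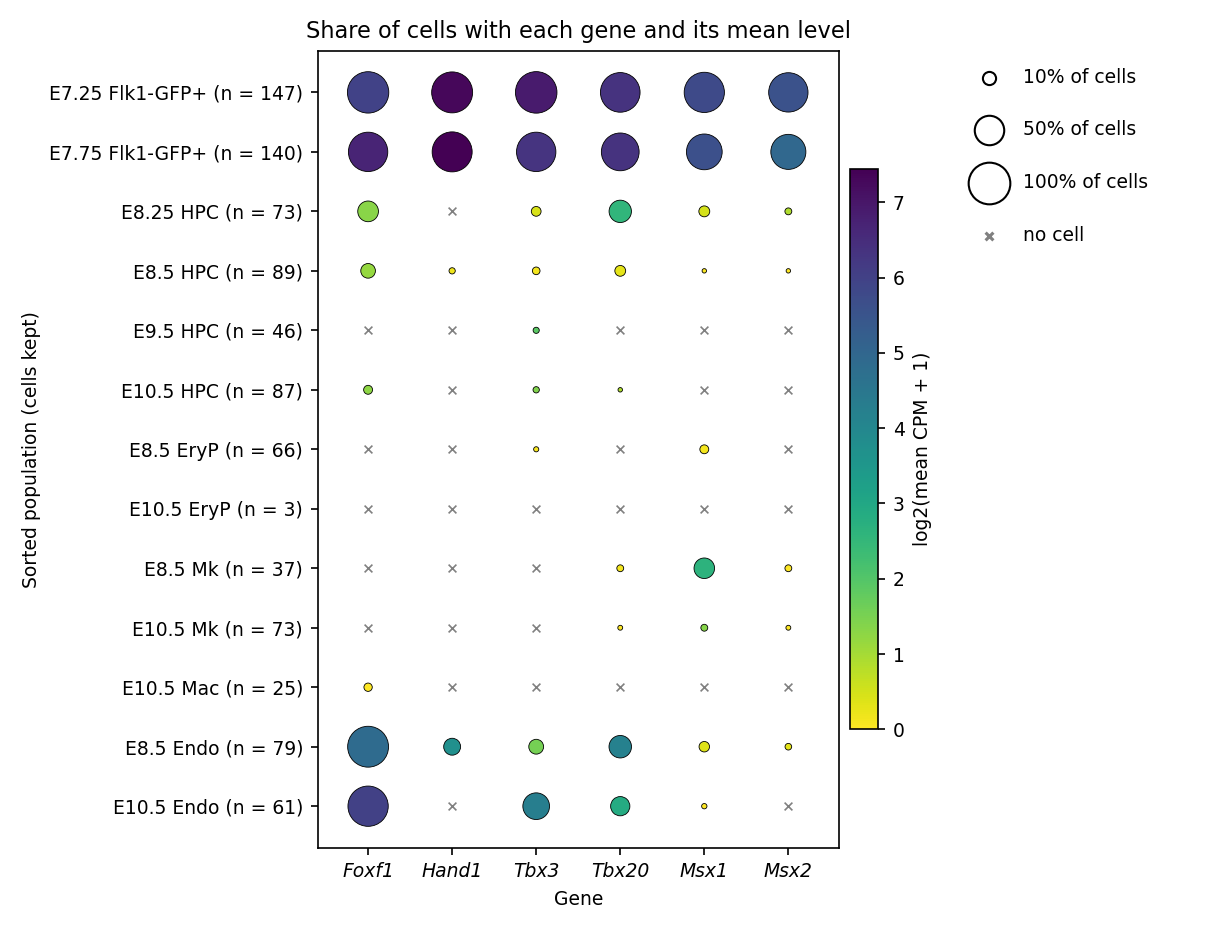
Share of cells with at least 1 count (left, percent of cells) and mean level (right, log2 of mean CPM + 1) for the 6 factors (columns) in the 13 sorted populations (rows), where the mean level may be compared down a column but not across genes because it is not divided by length. All 6 columns are high in the rows of Flk1-GFP+ cells, and Foxf1 alone is detected in over 90% of cells in both endothelial rows.

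Most Flk1-GFP+ cells held several members at once. At E7.25 a cell held 5.67 ± 0.674 of the 6 members (mean and SD over the cells of 1 population), 76.9% of cells held all 6 and none held fewer than 3. At E7.75 a cell held 4.97 ± 1.49, 81 of 140 cells (57.9%) held all 6, and 18 held only 1 or 2. These 18 cells came from both lanes, 10 from lane 7 and 8 from lane 8. Levels of member pairs were correlated over cells, with Spearman rho of 0.13 to 0.72 (median 0.35 over 15 pairs) at E7.25 and 0.33 to 0.69 (median 0.51) at E7.75. The highest value at both stages was that of Foxf1 with Hand1, 0.72 at E7.25 and 0.69 over 140 cells at E7.75. The cells of a stage share their sort and capture, and within single lanes of E7.75 the ranges were 0.36 to 0.82 and 0.31 to 0.68.

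**Figure D2:**
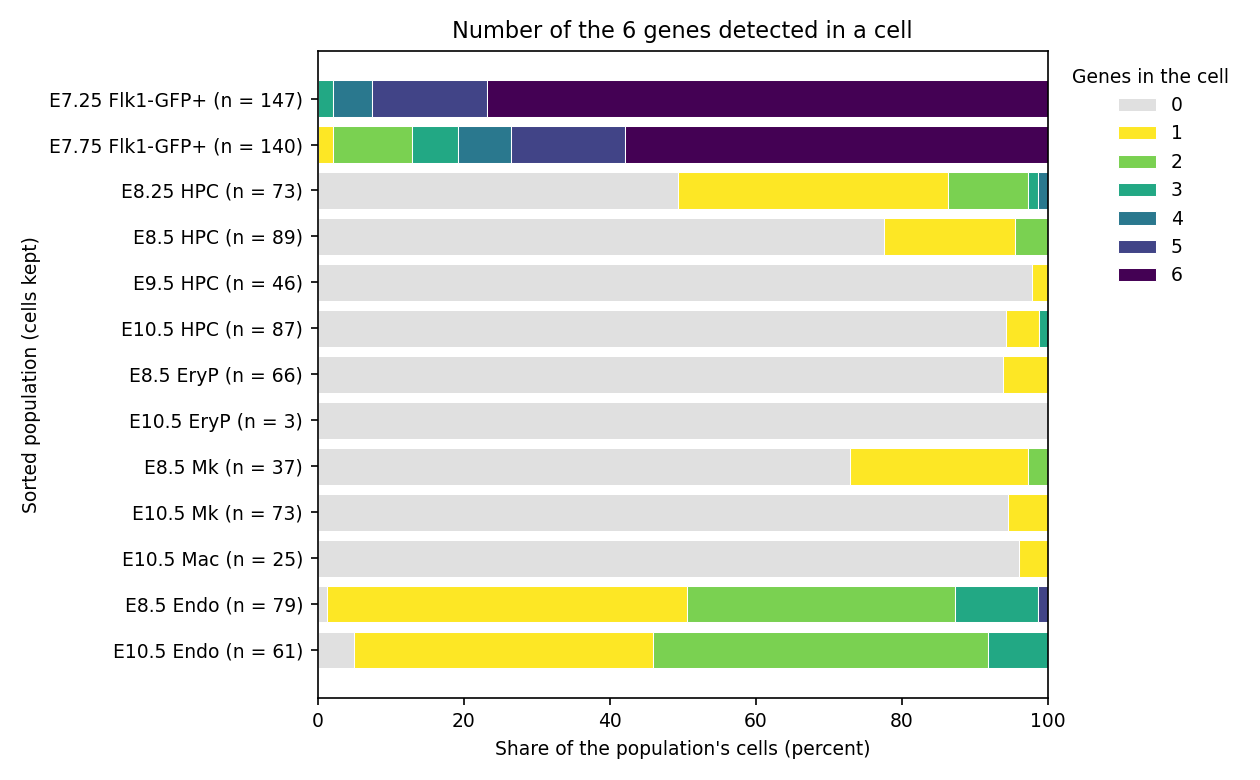
Number of the 6 factors detected per cell (colours, 0 to 6) as a percentage of the cells of each sorted population, with the number of cells in brackets. Cells with all 6 factors make up 76.9% of E7.25 and 57.9% of E7.75 Flk1-GFP+ cells, whereas 1 or 2 factors are usual in endothelial cells. In blood cells 0 is usual except in E8.25 HPC, where 49.3% of cells hold none.

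At E7.75 the cells with few members mostly held haematopoietic transcripts. The genes examined were Itga2b, encoding CD41, the transcription factors Gata1, Gfi1b, Runx1 and Tal1 of blood and haemogenic cells, and the progenitor factor Myb. Of the 18 cells with 1 or 2 members, 16 held at least 5 of these 6 genes. In those 18 cells Hand1 was detected in 9, Tbx3 in 9, Tbx20 in 7, Foxf1 in 6, Msx1 in 2 and Msx2 in none. Among the 81 cells with all members the median number of haematopoietic genes was 2. The embryonic globin Hbb-bh1 had a median of 1258 CPM in the 15 cells with 2 members and 0.822 CPM in the 81 cells with all 6. These counts are a description of cells within 1 population, with median total counts of 2.46e+06 in the cells with 2 members and 1.97e+06 in those with all 6.

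Seen from the haematopoietic side, 37 E7.75 cells held all 6 haematopoietic genes, and their median number of members was 3, ranging from 1 to 6. Hand1 was detected in 29 of these 37 cells, Tbx3 in 27, Foxf1 in 24, Tbx20 in 21, Msx2 in 17 and Msx1 in 15. In the 10 cells with no haematopoietic gene, Foxf1, Hand1, Tbx3, Tbx20 and Msx2 were each detected in 10 and Msx1 in 8. Mesodermal factors and haematopoietic genes were therefore found together in single E7.75 cells, with the Msx genes the least often detected among the 37. At E7.25 only 6 cells held all 6 haematopoietic genes, and their median number of members was 5.5. Over cells, Foxf1 had a Spearman rho of -0.47 (E7.25) and -0.68 (E7.75) with the mean level of the haematopoietic genes, and of 0.53 and 0.63 with that of the mesenchymal markers.

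**Figure D3:**
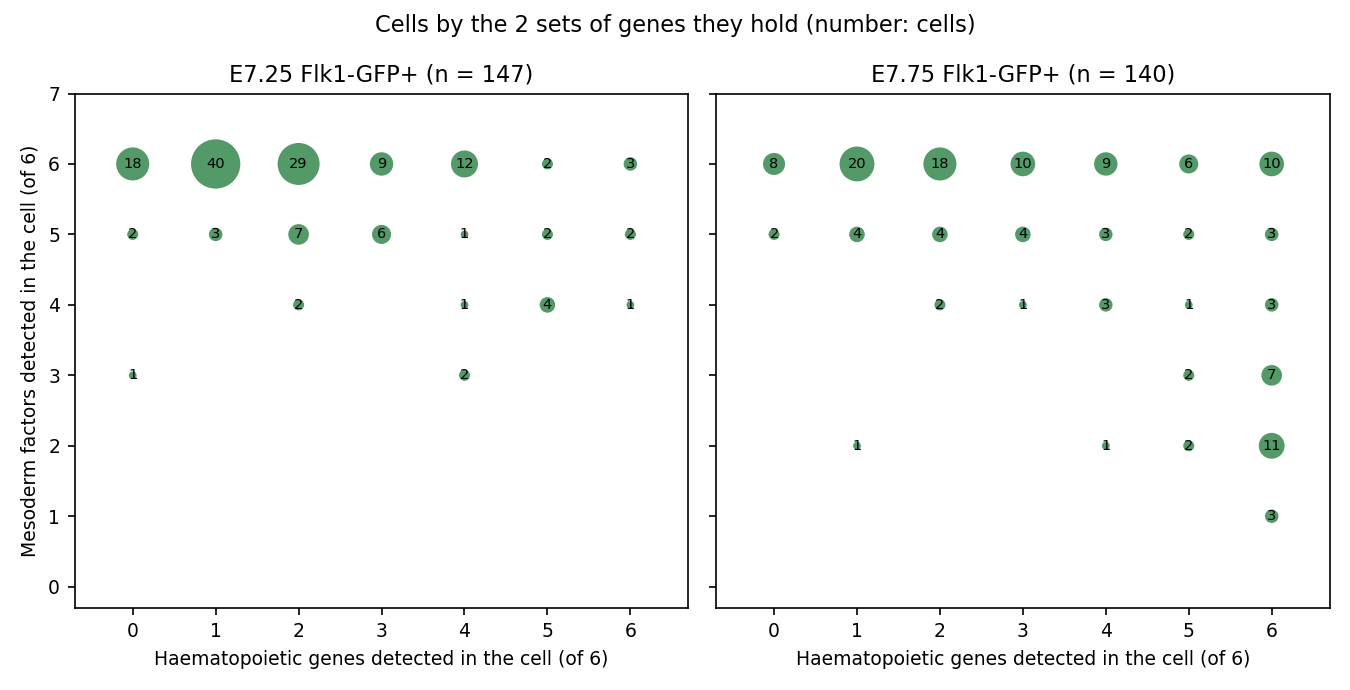
Number of the 6 factors detected (vertical axis) against the number of 6 haematopoietic genes detected (horizontal axis) in Flk1-GFP+ cells at E7.25 (left) and E7.75 (right), where the area of a circle is proportional to the number of cells printed in it. At E7.75 the cells with 1 or 2 factors lie mostly at 5 or 6 haematopoietic genes, and cells with all 6 of both sets also occur.

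The blood populations held few of these transcripts. Over all blood cells the mean number of members was 0.204 per cell, and 417 of 499 cells (83.6%) held none. Compared with E7.75 Flk1-GFP+ cells, all 6 members were at least 2-fold lower in E8.5 EryP, against 22.7% of 10763 genes tested, and all 6 were at least 2-fold lower in E8.25 HPC, against 12.3% of 11028 genes. The members' median log2 ratios were -6.31 and -5.27, beside medians of 0.04 and -0.01 over all genes tested. These populations lay on the other flow cell and came from embryos without the Flk1-GFP allele and from another dissociation, which cannot be told apart from stage. The rule for the list named the loss in blood, and all members passed the minimum level through the E7.75 cells, so nothing is read from these counts and medians.

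In E8.5 EryP no count of Foxf1, Hand1, Tbx20 or Msx2 was found, and with 66 cells a share of up to 4.55% is allowed for each. Taking 3 counts over the population as the floor, Foxf1 was at least 3906-fold, Hand1 at least 6502-fold, Tbx20 at least 3057-fold and Msx2 at least 1141-fold lower than in E7.75 Flk1-GFP+ cells. Such bounds, here and below, cover counting error only. Reads without molecular identifiers are not independent molecules, and 1 positive cell can carry far more than 3 counts, as a megakaryocyte with 495 counts of Msx1 shows. Tbx3 was found in 1 erythroid cell (1.52%, 0.0384 to 8.16%) and Msx1 in 3 (4.55%, 0.947 to 12.7%). Whether these detections are background was not tested, and the Msx1 share serves below only as a comparison. At E10.5 only 3 EryP cells passed the filter, and no member was counted in them.

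HPC at E8.25 were the blood population with most members detected, 0.685 per cell, followed by E8.5 Mk with 0.297 and E8.5 HPC with 0.270. Foxf1 was present in 18 of 73 E8.25 HPC (24.7%, 15.3 to 36.1%) at a mean of 1.50 CPM and in 11 of 89 E8.5 HPC (12.4%, 6.33 to 21.0%) at 1.26 CPM. Tbx20 was present in 21 of 73 E8.25 HPC (28.8%, 18.8 to 40.6%) at a mean of 4.94 CPM and in 6 of 89 E8.5 HPC (6.74%, 2.51 to 14.1%) at 0.236 CPM. Most detections of Tbx20 at E8.25 were low, since 10 or more counts were found in only 5.48% of cells, and the mean rested on those few cells, falling to 3.14 CPM without the highest. Thinning each cell to 840000 counts gave a share of 18.1%. Tbx3, Msx1 and Msx2 were each found in 5 or fewer of the 73 E8.25 HPC. Hand1 was not found in any of them, which allows a share of up to 4.11% and makes its mean at least 7009-fold lower than at E7.75.

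Foxf1 in HPC occurred together with endothelial markers and with some mesenchymal ones. Of the 18 E8.25 HPC with Foxf1, 17 held Plvap, which encodes a protein of endothelial fenestrae and caveolae, against 28 of 55 without Foxf1, and 18 of 18 against 33 of 55 held Ramp2, a co-receptor for adrenomedullin. Aplnr was detected in 15 of 18 and 35 of 55, and Pecam1, Cdh5, Tek and Kdr in all 18 cells with Foxf1 and in 50 to 54 of 55 without. The erythroid and megakaryocytic factor Gata1 was detected in 8 of 18 cells with Foxf1 and 40 of 55 without, Gfi1b in 12 of 18 and 51 of 55, Myb in 11 of 18 and 41 of 55, and Runx1 in 15 of 18 and 54 of 55. The other haematopoietic genes hardly differed, with Itga2b in 17 of 18 and 51 of 55, and Tal1 in 17 of 18 and 54 of 55. Of the mesenchymal markers, Tagln was detected in 6 of 18 and 3 of 55, and Hsd11b2 in 6 of 18 and 6 of 55. Acta2 was detected in 4 of 18 and 9 of 55, while Col1a2 went the other way, with 7 of 18 and 23 of 55. Pdgfra, Col1a1, Dlk1 and Wfdc2 were each detected in at most 1 of the 18 cells with Foxf1. Median total counts were similar, 2.01e+06 with and 1.90e+06 without Foxf1. At E8.5 Plvap was detected in 11 of 11 HPC with Foxf1 and 48 of 78 without, and the apelin receptor gene Aplnr in 10 of 11 and 39 of 78. Of the haematopoietic genes at E8.5, Gata1 was detected in 8 of 11 and 61 of 78, and Gfi1b in 8 of 11 and 67 of 78. Myb was detected in 10 of 11 and 71 of 78, and Runx1 in 11 of 11 and 78 of 78. Mesenchymal markers at E8.5 went either way, with Hsd11b2 in 3 of 11 and 7 of 78, and Col1a2 in 3 of 11 and 32 of 78. For Tbx20 in E8.25 HPC the markers went either way, with Plvap in 12 of 21 cells with Tbx20 and 33 of 52 without, Ramp2 in 14 of 21 and 37 of 52, Aplnr in 17 of 21 and 33 of 52, and Cdh5 in 21 of 21 and 47 of 52. Foxf1 and Tbx20 were found together in 4 of the 73 cells, where the product of their shares gives 5.18. Both gates took CDH5+ cells, and the part of endothelial cells in these values was not tested.

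In HPC sorted as CDH5- at E9.5 and E10.5, members were nearly absent. At E9.5 a single cell of 46 held a member, Tbx3 at 124.7 CPM. At E10.5 5 of 87 cells held any member, Foxf1 in 4 cells, Tbx3 in 2 and Tbx20 in 1. A single E10.5 cell held 3 members, Foxf1 at 118.9 CPM, Tbx3 at 63.9 CPM and Tbx20 at 77.8 CPM. The same cell had 662 CPM of Cdh5 and 99.3 CPM of Pecam1, both endothelial adhesion genes, 1.34 CPM of Ptprc (CD45) and none of Itga2b (CD41). Without the highest cell, mean Foxf1 in E10.5 HPC was 0.0140 CPM instead of 1.38 CPM.

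Megakaryocytes held Msx1 and little else. Msx1 was present in 9 of 37 E8.5 Mk (24.3%, 11.8 to 41.2%), against 3 of 66 E8.5 EryP and 5 of 79 E8.5 endothelial cells (6.33%, 2.09 to 14.2%). The values in the 9 cells ran from 0.183 to 87.9 CPM, and 3 of the 9 cells had only 1 count each while the highest had 495 counts. The mean was 5.32 CPM in Mk and 0.276 CPM in endothelial cells, so that Mk were 19.3-fold higher, a log2 ratio of -2.31 for endothelium over Mk. Cells with 70.7 and 87.9 CPM held most of this level, and without the highest cell the mean in Mk was 3.03 CPM, below the minimum used for calls. At thinned depth the share was 16.2%. All 37 E8.5 Mk, with or without Msx1, held Gata1, Gfi1b, Runx1, Tal1 and Itga2b, and none held the mesenchymal markers Pdgfra, Col1a1, Tagln, Hsd11b2, Dlk1 or Wfdc2. The other 2 of the 8 mesenchymal markers were present, Col1a2 in 13 of 37 Mk (mean 10.4 CPM, 3 of 9 cells with Msx1) and Acta2 in 7 of 37 (2 of 9 with Msx1). Cdh5 was detected in 3 of 9 cells with Msx1 and 2 of 28 without. Pf4, the platelet chemokine gene, was detected in 5 of 9 and 26 of 28, but the other megakaryocyte markers did not follow it, with Gp9 in 5 of 9 and 18 of 28, Gp1bb in 5 of 9 and 15 of 28, and Vwf in 7 of 9 and 15 of 28. Median total counts were 3.02e+06 and 3.56e+06. At E10.5 Msx1 was found in 2 of 73 Mk. Foxf1, Hand1 and Tbx3 were not found in Mk of either stage, and Tbx20 and Msx2 were each found in 1 cell per stage. In 25 macrophages the sole trace of a member was 1 count of Foxf1.

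**Figure D4:**
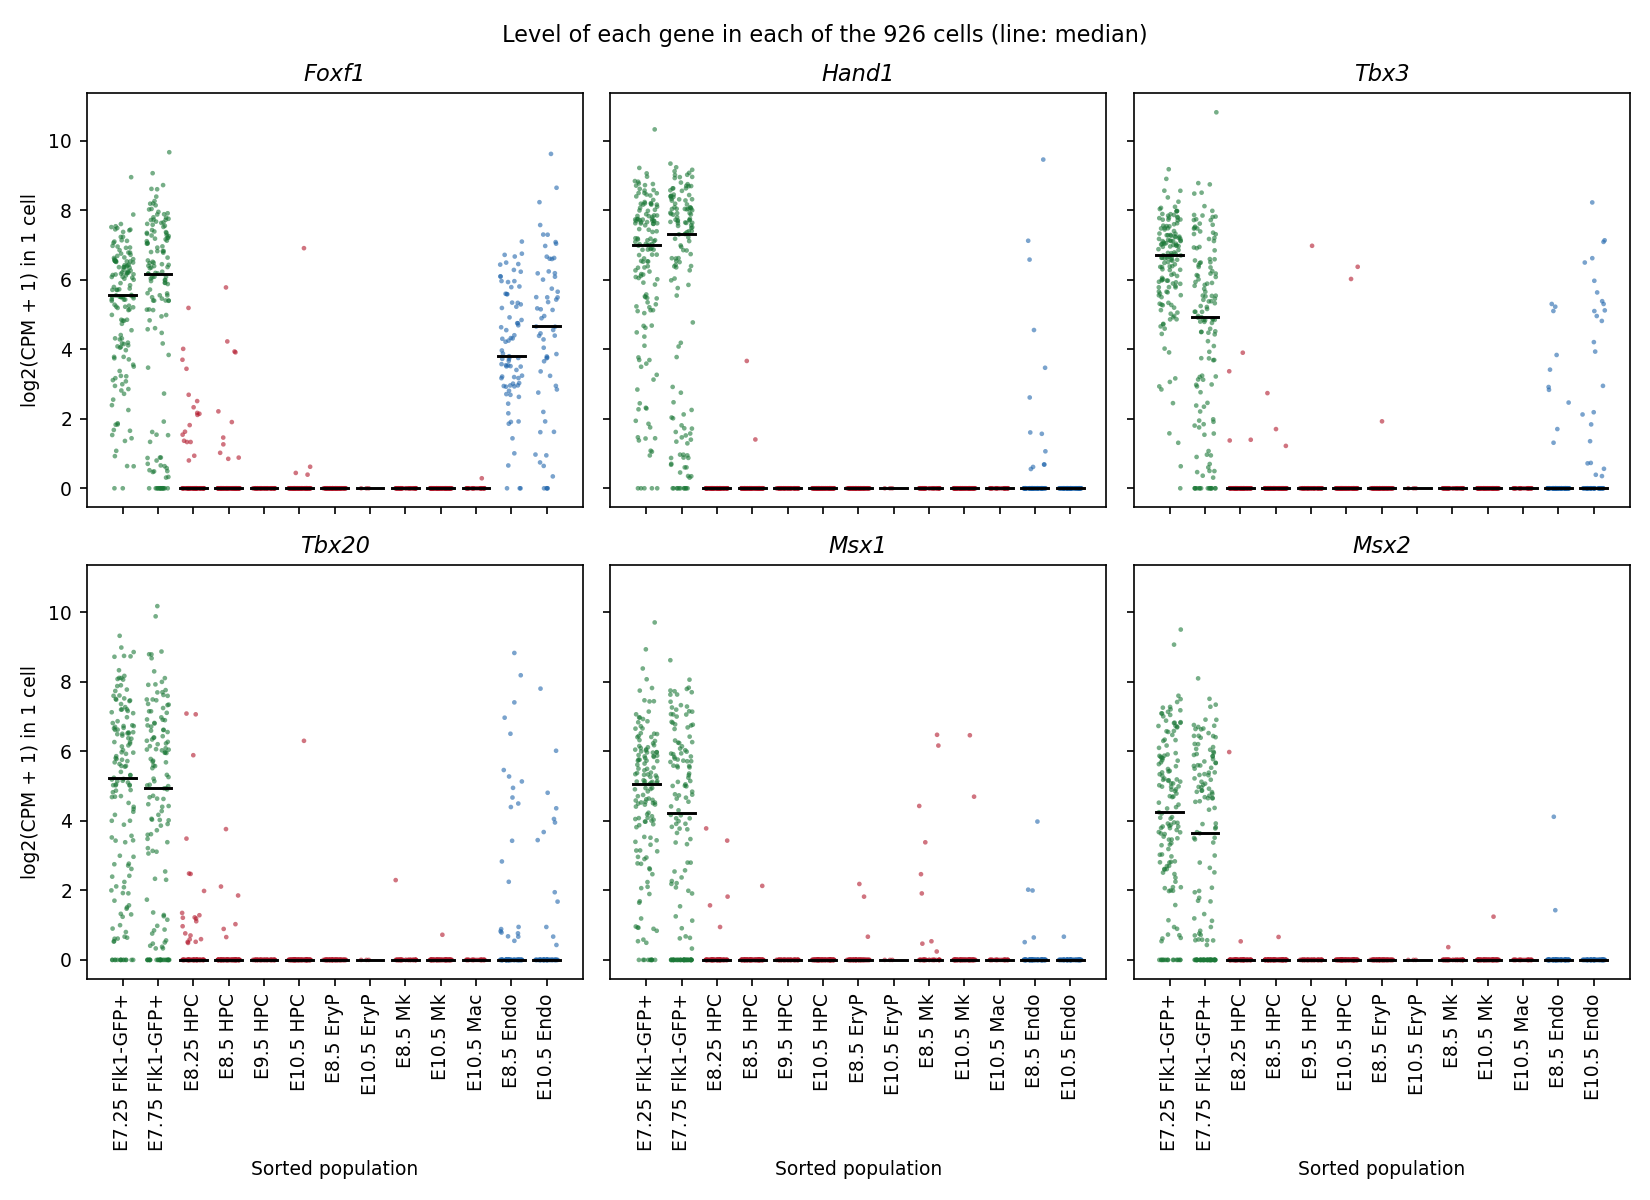
Level of each factor (vertical axis, log2 of CPM + 1) in every cell (points) of the 13 sorted populations, coloured green for Flk1-GFP+ cells, red for blood and blue for endothelial cells, with a line at the median. Foxf1 spreads over most endothelial cells, whereas Hand1, Tbx20 and Tbx3 in endothelium and Msx1 in E8.5 Mk rest on a minority of cells.

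Endothelial cells of both stages expressed Foxf1 widely. At E8.5 Foxf1 was detected in 76 of 79 cells (96.2%, 89.3 to 99.2%), with a mean of 28.0 CPM, a median of 12.9 CPM and a highest cell of 135.7 CPM. At E10.5 it was detected in 57 of 61 cells (93.4%, 84.1 to 98.2%), with a mean of 63.3 CPM, a median of 24.2 CPM and a highest cell of 784 CPM. Per kilobase of exon its mean was 11.6 CPM at E8.5 and 26.2 CPM at E10.5, the highest of the members at both stages.

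The other members differed from Foxf1 in how few endothelial cells held them. At E8.5 Tbx20 was detected in 23 of 79 cells (29.1%, 19.4 to 40.4%), Hand1 in 13 (16.5%, 9.06 to 26.5%), Tbx3 in 10 (12.7%, 6.24 to 22.0%), Msx1 in 5 and Msx2 in 2. The mean of Hand1, 12.4 CPM, rested on 1 cell with 700 CPM, and without that cell it was 3.55 CPM. The mean of Tbx20 was 17.2 CPM and 11.6 CPM without its highest cell, and that of Tbx3 was 1.92 CPM. At E10.5 Tbx3 was detected in 25 of 61 cells (41.0%, 28.6 to 54.3%) at a mean of 18.4 CPM, and Tbx20 in 13 (21.3%, 11.9 to 33.7%) at 6.41 CPM, or 2.81 CPM without the highest cell. Hand1 and Msx2 were not found at E10.5, which allows a share of up to 4.92% for each, and Msx1 was found in 1 cell with 2 counts. An endothelial cell held 1.63 ± 0.803 members at E8.5 (79 cells) and 1.57 ± 0.718 at E10.5 (61 cells), so the number per cell was alike at both stages while the second most widespread member was Tbx20 at E8.5 and Tbx3 at E10.5.

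Against the blood populations of the same stage, 3 of 6 members were called higher in E8.5 endothelium than in each of EryP, Mk and HPC, namely Foxf1, Hand1 and Tbx20, whereas 14.3% of 11662 genes tested were called. The rule for the list named this contrast, so nothing is read from the count. Foxf1 was at least 1054-fold higher than in EryP, at least 1143-fold higher than in Mk and 22.2-fold higher than in HPC. Hand1 was at least 466-fold, at least 506-fold and 82.8-fold higher, respectively, with its endothelial mean resting largely on 1 cell. Tbx20 was at least 650-fold higher than in EryP, 163-fold higher than in Mk and 73.2-fold higher than in HPC. Tbx3 lay below the 5 CPM minimum at this stage, and was 18.5-fold higher than in HPC.

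At E10.5, 3 members, Foxf1, Tbx3 and Tbx20, were called higher in endothelium than in HPC, Mk and Mac, against 17.9% of 12629 genes, and again the rule for the list named the contrast. Relative to HPC, Foxf1 was 45.9-fold, Tbx3 11.0-fold and Tbx20 7.17-fold higher, the HPC means of Foxf1 and Tbx20 resting on the cell with 3 members described above and that of Tbx3 on 2 cells. Relative to Mk, Foxf1 was at least 1877-fold and Tbx3 at least 545-fold higher, and relative to Mac, Tbx3 was at least 285-fold and Tbx20 at least 99.2-fold higher. Leaving out the highest endothelial cell of each member, an alternative chosen after seeing the data, left Foxf1 and Tbx20 called at E8.5 and Foxf1 and Tbx3 at E10.5.

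Compared with E7.75 Flk1-GFP+ cells, all 6 members were at least 2-fold lower in E8.5 endothelium, against 14.5% of 11265 genes tested, with a median log2 ratio of -4.18 beside 0.02 for all genes. The smallest difference was that of Foxf1, with a log2 ratio of -1.85, followed by Tbx20 with -2.17, Hand1 with -3.70, Msx2 with -4.67, Tbx3 with -4.77 and Msx1 with -5.26. Foxf1 was detected in 89.3% of E7.75 Flk1-GFP+ cells and 96.2% of E8.5 endothelial cells, at a lower mean in the latter, whereas the Msx genes were nearly absent from endothelium. Tbx3, Msx1 and Msx2 passed the minimum level through the E7.75 cells alone, so their lower level was largely fixed by it. The Flk1-GFP allele, gate, dissociation and flow cell differed along with stage and cannot be told apart.

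Between the endothelial stages, which lay on different flow cells, 2 members were called higher at E10.5, Foxf1 with a log2 ratio of 1.15 and Tbx3 with 2.73, against 22.0% of 11446 genes tested. In the other direction 2 members were called, Tbx20 with a log2 ratio of -1.30 and Hand1, which was at least 298-fold lower at E10.5, against 17.4% of genes. These shares of all genes are large, and both Hand1 at E8.5 and Tbx20 at E10.5 depended on single cells as given above.

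Endothelial cells that held Tbx3, Hand1 or Tbx20 also held the endothelial markers. At E8.5 all 7 markers were detected in every cell with or without each member. For Hand1, Krt19, a keratin of mesothelium and other epithelia, was found in 6 of 13 cells with it and 7 of 66 without, Dlk1 in 4 of 13 and 3 of 66, and the smooth muscle actin gene Acta2 in 7 of 13 and 20 of 66. Pdgfra was found in 1 of 13 and 4 of 66, Tagln in 6 of 13 and 29 of 66, and Wfdc2 in 2 of 13 and 7 of 66. Col1a2 was found in 11 of 13 and 41 of 66, Hsd11b2 in 5 of 13 and 14 of 66, and Col1a1 in 1 of 13 and 1 of 66. Runx1 was found in 0 of 13 cells with Hand1 and 15 of 66 without. Pdgfra, a receptor gene of mesenchyme, was found in 5 of 23 cells with Tbx20 and 0 of 56 without. Tagln was found in 13 of 23 and 22 of 56, Col1a2 in 17 of 23 and 35 of 56, and Col1a1 in 1 of 23 and 1 of 56. Acta2 was found in 8 of 23 and 19 of 56, and Dlk1 in 2 of 23 and 5 of 56. Wfdc2 was found in 2 of 23 and 7 of 56, and Hsd11b2 in 4 of 23 and 15 of 56. One E8.5 endothelial cell held 5 members, and it had 783 CPM of Acta2 and 44.5 CPM of Col1a1 along with 79.5 CPM of Cdh5 and 89.9 CPM of Pecam1. At E10.5 all 7 endothelial markers were detected in the 25 cells with Tbx3 and the 13 with Tbx20, and Pdgfra in none of them. The summed level of all 8 mesenchymal markers ranged from 0 to 1555 CPM over E8.5 and from 0 to 6441 CPM over E10.5 endothelial cells, and its part in the members' levels was not tested. Median total counts were 1.56e+06 in E10.5 cells with Tbx3 and 2.29e+06 in those without, so the cells with Tbx3 were not the deeper ones by median. Tbx3 and Tbx20 were found together in 5 E10.5 endothelial cells, where the product of their shares gives 5.33. In contrast to the Flk1-GFP+ cells, levels of members were hardly correlated in endothelium, with Spearman rho of -0.01 to 0.15 over 6 pairs at E8.5 and up to 0.04 over 3 pairs at E10.5. Members other than Foxf1 had no count in most endothelial cells. Such ties limit rho, so nothing is read from this contrast.

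Fendrr, a long non-coding RNA transcribed away from Foxf1 at chr8:121054882-121083110 on the minus strand, was examined because of its position. It was detected in 46.3% of E7.25 and 59.3% of E7.75 Flk1-GFP+ cells, with means of 15.8 and 44.0 CPM. In endothelium it was detected in 27.8% of E8.5 cells at a mean of 0.532 CPM and in 45.9% of E10.5 cells at a mean of 81.8 CPM (highest cell 1755 CPM, mean without it 53.9 CPM). The log2 ratio of E10.5 over E8.5 endothelium was 5.76 for Fendrr and 1.15 for Foxf1. In blood only 1 count was found, in E10.5 HPC. Over cells, Spearman rho of Foxf1 with Fendrr was 0.46 and 0.60 in the Flk1-GFP+ populations and 0.14 and 0.22 in E8.5 and E10.5 endothelium.

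Other regulators of mesoderm and the signalling pathways upstream of the members were described by the same rule. In E8.5 endothelium 5 of 16 other mesoderm transcription factors passed the minimum level, namely Gata6, Isl1, Twist1, Snai1 and Foxc2. All 5 passed it through endothelium, since their E8.5 blood means were below 5 CPM, so their higher level there was largely fixed by the minimum. Without the highest cell, mean Foxc2 in endothelium was 4.03 instead of 5.47 CPM and mean Snai1 3.57 instead of 5.39 CPM, both below the minimum. At E10.5 Gata6, Isl1 and Snai2 were called of 4 over the minimum. These also passed it through endothelium, with means below 5 CPM in HPC, Mk and Mac, so the same limit holds. Mean Isl1 without its highest cell was 2.98 instead of 5.40 CPM, below the minimum. Of the 6 close relatives of the members in the filtered tables, none reached the minimum level in the comparison with blood at E8.5 or E10.5. The BMP pathway, through which Msx genes are classically induced, was represented by 16 genes. In E8.5 endothelium 6 of 13 over the minimum were called higher (Bmpr2, Acvr1, Smad1, Id1, Id2 and Id3), beside 14.3% of all genes tested. At E10.5 10 of 15 were called, beside 17.9%. Of these, Bmp2, Bmp7, Smad6, Smad7 and Bambi passed the minimum through endothelium alone, with means below 5 CPM in HPC, Mk and Mac. Their higher level was largely fixed by the minimum, which also limits the E10.5 median given next. Taking each gene's lowest ratio over the blood populations of the stage, the median log2 ratios of the list were 1.00 and 1.78. The medians of these lowest ratios over all genes tested were -0.43 and -0.59. Bmp7 was among the 10 through 1 cell, and its mean without that cell was 0.153 instead of 17.8 CPM. Smad4 and Smad5 also depended on 1 cell each. Without their highest cells, mean Smad5 was 84.3 instead of 170.5 CPM and mean Smad4 37.8 instead of 83.1 CPM. Beside HPC means of 54.4 and 23.6 CPM, both then fell short of 2-fold. The 2 Hedgehog pathway genes called at E8.5 were Gli3, a transcription factor, and Hhip, a Hedgehog-binding inhibitor, and at E10.5 Gli3 alone was called. Mean Gli3 in E10.5 endothelium was 12.8 CPM, beside 4.87 CPM in Mac. Without its highest cell it was 10.7 CPM, just short of the 2-fold limit. Mean Hhip at E8.5, 21.3 CPM, rested on 1 cell with 1612 CPM and was 0.904 CPM without it, below the minimum. From E7.75 Flk1-GFP+ cells to E8.5 endothelium, 5 of 6 Hedgehog genes (Ptch1, Smo, Gli1, Gli2 and Gli3) and 10 of 13 other mesoderm factors were called lower. So were 6 of 16 BMP genes (Bmp4, Bmp5, Bmp7, Bmpr1a, Smad6 and Smad7), beside 14.5% of all genes tested. Gli1, Gli2, Bmp5, Bmp7, Smad6 and Smad7 passed the minimum through the E7.75 cells alone. The same holds for the mesoderm factors over the minimum other than Gata6, Isl1, Twist1, Snai1 and Foxc2. For all these genes a lower level was largely fixed by the minimum. Reporter allele, gate, dissociation and flow cell also differed and cannot be told apart from stage.

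The genes with the pattern most like each member were found by Pearson correlation of log2(mean CPM + 1) over the 13 population means, among 10490 genes. The populations share flow cells and stages, and these values are a description. The named genes depend on the measure, since with Spearman correlation none of the 3 named for Tbx3, Msx1 and Msx2 were named again. Foxf1 was most like Lhfpl2 (0.994), Gjc1 (0.984), a gap junction gene, and Gata6 (0.983), a zinc finger factor of mesoderm and endoderm. Gata6 had mean levels of 74.1 and 107.97 CPM in E7.25 and E7.75 Flk1-GFP+ cells and 35.0 and 105.97 CPM in E8.5 and E10.5 endothelium, an order of levels like that of Foxf1. Hand1 was most like Bmp5 (0.992), a BMP ligand, the pseudogene Krt8-ps (0.991) and Crabp1 (0.989), a retinoic acid binding protein. Tbx3 was most like Pdpn (0.963), Pdgfra (0.960) and Crispld1 (0.951), and Tbx20 like Smarca1 (0.977), Myl7 (0.975), an atrial myosin light chain, and Tagln (0.970), an actin-binding protein of smooth muscle. Msx1 was most like Mixl1 (0.953), a homeobox gene of the primitive streak, Vcan (0.943) and A930032L01Rik (0.933), and Msx2 like Tenm3 (0.994), Zscan10 (0.990) and Rimklb (0.989). Between members the correlation was 0.93 for Foxf1 with Tbx20, 0.93 for Hand1 with Msx2, 0.92 for Msx1 with Msx2 and 0.59 for Foxf1 with Msx1.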

How the data were processed

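Cells were captured on a Fluidigm C1 chip and full-length cDNA libraries were sequenced. The authors aligned the reads with Rsubread to the mouse genome (GRCm38 per the submitters' processing notes) and assigned them to genes with featureCounts. The authors removed low-quality cells with scater and deposited a filtered count table, an unfiltered count table and a table of CPM scaled by scran size factors. That signal, named CPM in the text, was deposited as counts times 1 factor per cell and summed to 699615 to 4.18e+06 per cell. Members' counts were identical in both count tables. Depth was 483830 to 5943204 counts per cell (median 1.89e+06).

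Cells were grouped by the sample labels. Members and lists were chosen with earlier results of these data known. A gene was detected with at least 1 count. Shares have exact 95% intervals, a count of 0 of n cells allows a share of 3 in n, and a population with no count was set to the floor of 3 counts over the population to bound a fold. Log2 ratios used mean CPM + 1, and a call needed a 2-fold difference and a mean of 5 CPM in a population compared. No test was made, since each population was 1 sample. Genes named beside the members were the 3 best correlated with each over population means, taken from genes whose mean reached 20 CPM in some population, and the listed relatives, mesoderm factors, pathway genes and cell type markers. Fendrr was added for its position beside Foxf1. Doublets were not called. Alternatives were another pseudocount, CPM from each cell's own total, the mean of log2(CPM + 1), a median, no minimum level, a 4-fold limit, 10 counts for detection, thinning to 840000 counts, all captured cells, Spearman correlation and leaving out lanes or single cells. The calculation of calls and correlations was tested on simulated data. Values were computed in Python 3.11.15 with SciPy 1.17.1, pandas 2.3.3 and numpy 2.4.6, and plotted with matplotlib 3.10.9, with GENCODE and RefSeq annotation of GRCm38.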

Additional observations from a re-analysis of the deposited data

How the results depend on the processing

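With the mean of log2(CPM + 1) over cells in place of the log2 of the mean, 1 member (Foxf1) instead of 3 was called higher in E8.5 endothelium than in blood, and 1 (Tbx3) instead of 0 was called lower at E7.75 than at E7.25. Leaving out 1 lane of the Flk1-GFP+ cells in turn gave 0 to 1 members called lower at E7.75, the 1 being Msx2 without lane 8 of E7.75. With no minimum level 4 members were called at E8.5, Tbx3 being added. At E10.5 a pseudocount of 10 or a 4-fold limit left 2 members called. Leaving out the highest endothelial cell of each member, chosen after seeing the data, left 2 at each stage. The mean of log2(CPM + 1) also left 2 members called at E10.5 (Foxf1 and Tbx3), without Tbx20. Of 324 log2 ratios recomputed under alternatives, 190 moved by at most 1.5-fold and the others by more, and none changed sign where a difference was called. Of 180 recomputed means, 42 moved by more than 1.5-fold, 41 of them with the median in place of the mean. Of 258 recomputed shares, 42 left their 95% interval, 33 of them with 10 counts as the minimum. With Spearman in place of Pearson correlation over population means, 2 of the 3 genes named as most like Hand1 were shared, 1 each for Foxf1 and Tbx20, and 0 for Tbx3, Msx1 and Msx2. Without E10.5 EryP all 3 were shared for each member except Msx1, with 2. Thinning left out 46 cells of lower depth. No paired analysis was possible because the numbers in the labels name single cells and no result comes from a test. With 37 cells in E8.5 Mk, 25 in E10.5 Mac and 3 in E10.5 EryP, low shares were not detectable there.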

Other observations

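Tbx2, the closest relative of Tbx3, is in the unfiltered counts but was not part of the filtered tables. Over all captured cells it was detected in 32 of 80 E10.5 endothelial cells (40.0%, 29.2 to 51.6%), in 2 of 79 E8.5 endothelial cells (2.53%, 0.308 to 8.85%), in 12 of 159 E7.25 cells (7.55%, 3.96 to 12.8%) and in 7 of 150 E7.75 Flk1-GFP+ cells (4.67%, 1.90 to 9.38%). In blood it was detected in 2 of 79 E8.25 HPC and 1 of 58 E9.5 HPC. Of the captured E10.5 endothelial cells, 32 held Tbx3, 32 held Tbx2 and 13 held both. The counts were low, 196 in all over the 80 cells. Tbx3 and Tbx2 transcripts share no identical run longer than 14 bases.

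Further mesodermal factors outside the filtered tables had their highest shares in Flk1-GFP+ cells. Tbx6, a T-box gene of paraxial mesoderm, was detected in 22.0% of captured E7.25 cells, and Cdx2, a caudal homeobox gene, in 25.3% of captured E7.75 cells. At E7.75 Osr1 was detected in 10.0% of captured cells, Prrx2 in 12.0% and Prrx1 in 8.67%. Msx3, the third Msx gene, had no count in any of 1073 captured cells.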
